A study of Mus musculus with 6 samples.

Results

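Cytochromes P450 of families 1 to 4 were examined in mouse liver after deletion of LKB1. All rows of the count table were taken whose symbol is Cyp1, Cyp2, Cyp3 or Cyp4 followed by 1 letter and a number, without rows marked as pseudogenes, which gave 80 genes in 21 subfamilies out of 55450 genes in the table. Of these, 57 had a mean of at least 0.5 CPM (counts scaled to a common library size) over the 6 libraries and 13 had no count in any library. The knockout (KO) mice carried LKB1 fl/fl alleles, in which loxP sites flank part of the gene, and the control mice were wild type (WT). Both groups of 3 mice, labelled C57BL/J, received Cre recombinase by an AAV8 virus, a serotype that reaches hepatocytes, at 6 weeks of age, and the left liver lobe was taken 4 weeks later, at 10 weeks. The promoter that drove Cre and the sex of the mice were not given in the sources used here. Each library is 1 mouse, and the comparison asks which of these genes differed between knockout and WT liver.

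Cytochromes P450 are haem enzymes of the endoplasmic reticulum that insert oxygen into drugs, toxins, steroids and fatty acids, with electrons from the reductase Por. Families 1 to 3 act mainly on foreign compounds and steroids, and family 4 acts on the terminal carbons of fatty acids and eicosanoids. In liver many are concentrated in hepatocytes around the central vein, many are induced through receptors such as AhR (Ahr), CAR (Nr1i3), PXR (Nr1i2) and PPAR alpha (Ppara), and in mice several are made mostly in males or mostly in females under the rhythm of growth hormone, through STAT5b and factors such as Bcl6 and Cux2.

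Sequencing gave 47659122 to 56147667 counts per library. A further difference is absent from the labels: knockout 1 and WT 1 had 42472 and 29243 counts of Xist and 6 and 3 summed counts of the Y-linked genes Uty, Kdm5d, Eif2s3y and Ddx3y. In the remaining 4 libraries these sums were 6146 to 8199 and Xist had at most 16 counts. Results are therefore given for all 6 libraries, for the Y libraries (knockout 2 and 3 against WT 2 and 3) and for the Xist pair (knockout 1 against WT 1), which has no replicate check. Stk11, which encodes LKB1, was at 11.4 to 22.1 CPM in knockout against 64.2 to 69.7 CPM in WT. Of 8 hepatocyte markers such as Alb, Ttr and Apoa1 none was at 0, and their summed level was 36215 to 77346 CPM in knockout against 86208 to 124652 CPM in WT, so the knockout sums were lower; Alb made up most of that sum in the WT libraries and knockout 1, and Cps1, on the same list, had 6332, 6042 and 12439.7 CPM in knockout 1, 2 and 3 and 3735, 3960.2 and 3361 CPM in WT 1, 2 and 3, above WT in every knockout library. In bulk tissue fewer cells of a type and less RNA per cell cannot be told apart.

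The members made up a smaller part of the transcriptome in knockout liver. Their summed level was 15718, 5300.4 and 8509.6 CPM in knockout 1, 2 and 3 and 26550.2, 27711 and 24504 CPM in WT 1, 2 and 3. As a share of the raw counts this was 1.63%, 0.575% and 0.789% in knockout and 2.71%, 2.64% and 2.40% in WT. The 3 knockout libraries lay below the 3 WT libraries, and knockout 1 was the highest of the knockout libraries. Summed by subfamily, which does not depend on how reads were divided among near-identical copies of a subfamily, the knockout range lay below the WT range for Cyp1a, Cyp2c, Cyp2d, Cyp2e, Cyp2f, Cyp2j, Cyp2r, Cyp2u and Cyp4a and overlapped it for Cyp1b, Cyp2a, Cyp2b, Cyp2g, Cyp3a, Cyp4b, Cyp4f and Cyp4v, the other subfamilies with a member at 0.5 CPM or more. Cyp2e1 made up the largest single part in WT, and Cyp3a11 in every knockout library. Cyp2e1 had a WT mean of 6273 and a knockout mean of 1183 CPM, a difference that did not pass the test over 6 libraries (adjusted p = 0.0640). As given above, the summed hepatocyte markers also had non-overlapping ranges, lower in knockout, and their part in these differences was not tested.

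**Figure D1:**
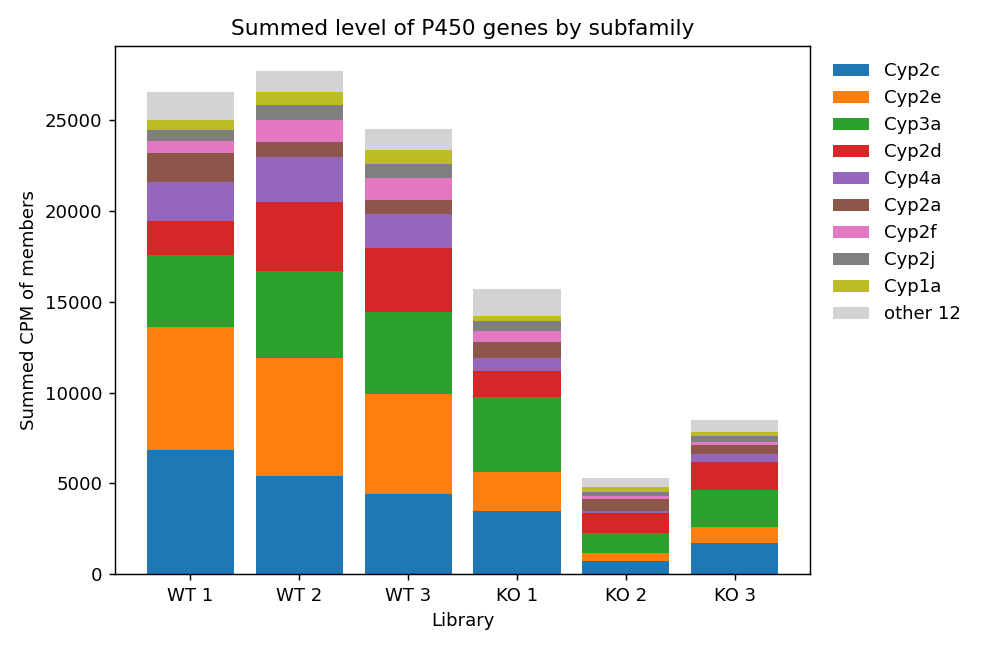
Stacked bars give the CPM of all members summed by subfamily (vertical axis) in each of the 6 libraries (horizontal axis), with the 9 subfamilies of highest summed level in colour and the other 12 in grey. The WT bars reach 24504 to 27711 CPM and the knockout bars 5300.4 to 15718 CPM.

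Over all 6 libraries a single member passed the test. Of 55 members that passed the filter on low counts, 1 (Cyp1a2) was lower and 0 were higher in knockout by edgeR's quasi-likelihood test, at a Benjamini-Hochberg threshold of 0.05. Of all 14539 genes tested 3.37% passed, 1.22% as lower and 2.15% as higher (177 and 313 genes, or 131 and 380 when scaled by library size alone). At an unadjusted p-value of 0.05, 21 members were lower and 2 higher, together 23 of 55, against 26.3% of all genes. DESeq2 called 15 members lower and 2 higher, and limma voom called 1 in each direction. The median log2 fold change of the 55 members was -0.79, against 0.0103 over all genes tested, and 43 of the 55 had a negative value. All 3 knockout libraries lay below all 3 WT libraries for 19 members (34.5%) and above them for 3 (5.45%), where 15.5% and 16.9% of all genes did so, and 32.4% in either direction.

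**Figure D2:**
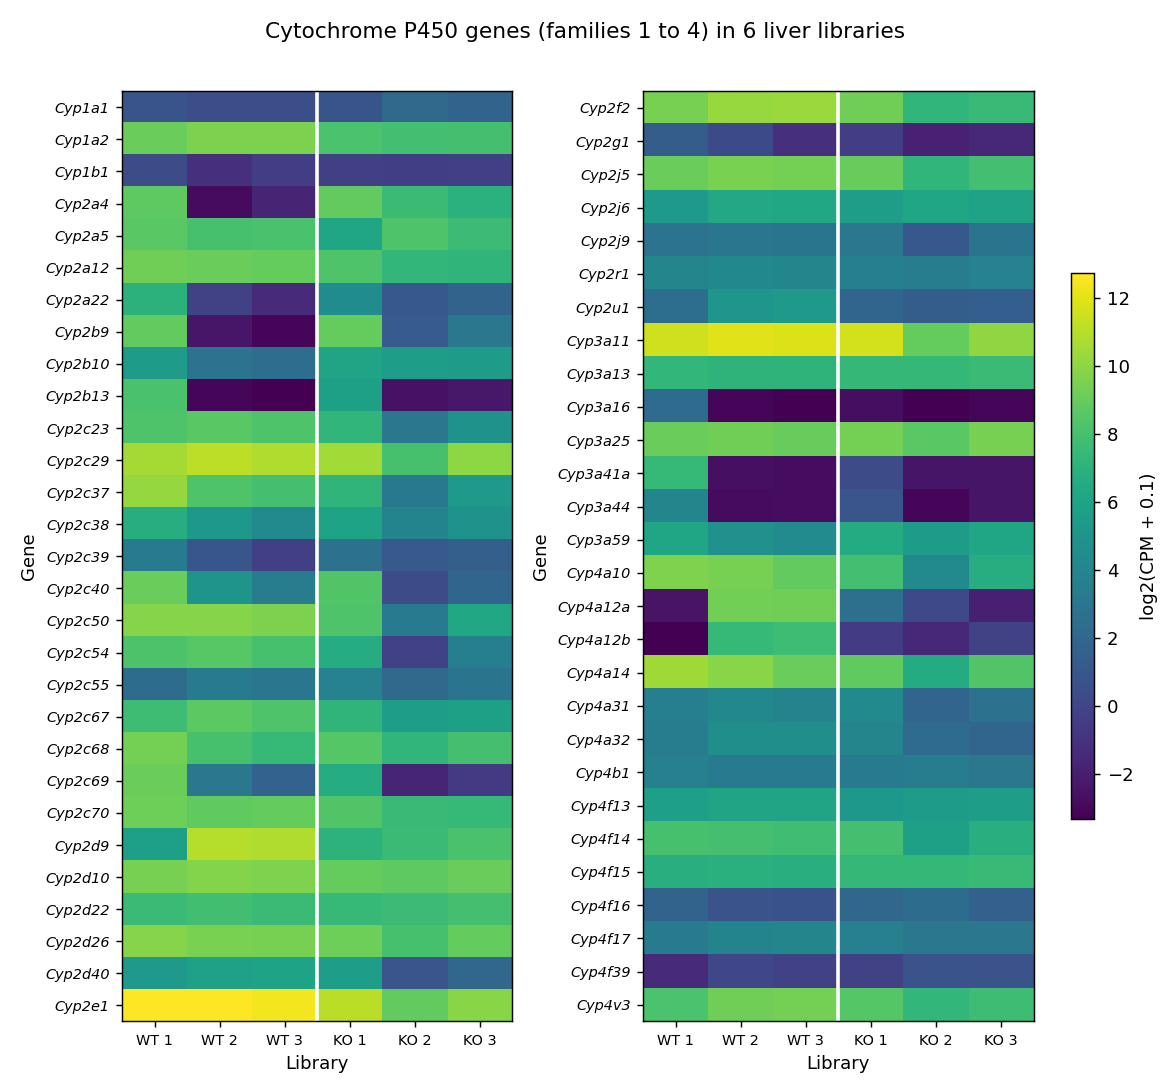
Colour gives log2(CPM + 0.1) of the 57 members with a mean of at least 0.5 CPM (rows) in the 3 WT and 3 knockout libraries (columns, separated by a white line). Cyp2e1 is the brightest row in WT, and rows such as Cyp4a12a, Cyp2a4 and Cyp2b9 differ more between WT 1 and the other WT libraries than most rows do.

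Levels per kilobase of exon allow a rough comparison of genes, as the length counts every annotated exon and not the expressed transcript alone. By this measure Cyp2e1 was the most abundant member in WT at 2907 ± 306 CPM per kb (SD, n = 3). Cyp3a11 followed at 710.0 ± 107 and Cyp2c29 at 597 ± 113 CPM per kb. In knockout these 3 genes were at 548 ± 409, 310.5 ± 280.3 and 297 ± 194 CPM per kb, where the knockout SDs were large beside the means.

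Family 1 holds the targets of the aryl hydrocarbon receptor. Cyp1a2 (ENSMUSG00000032310.4, chr9:57676937-57683703, minus strand, GRCm38), a pericentral enzyme that oxidises caffeine and aromatic amines, had 291, 241 and 259 CPM in knockout 1, 2 and 3 and 539, 741 and 750.2 CPM in WT 1, 2 and 3. The knockout libraries differed little among themselves and all lay below the WT libraries. Its log2 fold change of -1.36 ± 0.199 (SE) passed (adjusted p = 0.0259), a 2.57-fold fall, and the value was -1.58 in the Y libraries (adjusted p = 0.00214) and -0.89 in the Xist pair. Leaving out knockout 2, knockout 3, WT 2 or WT 3 raised the adjusted p-value to 0.0795, 0.131, 0.150 and 0.141, with log2 fold changes from -1.35 to -1.28, and a fit with the replicate number as a block gave 0.0818. Its neighbour Cyp1a1 (ENSMUSG00000032315.6, chr9:57687928-57703824, plus strand), the classical gene induced by the receptor, was at a low level, with 1.66, 4.65 and 3.33 CPM in knockout 1, 2 and 3 and 1.73, 1.29 and 1.35 CPM in WT 1, 2 and 3. It passed the test as higher in the Y libraries (1.59 ± 0.256 (SE), adjusted p = 0.00877), and knockout 1 and WT 1 were close to each other. Cyp1b1, which is made mainly outside hepatocytes, had 0.738, 0.684 and 0.722 CPM in knockout 1, 2 and 3 and 1.22, 0.366 and 0.663 CPM in WT 1, 2 and 3, with overlapping groups and no call in either fit.

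Within the 4 Y libraries many more members passed. There 27 of 55 members fell (49.1%) and 8 rose (14.5%) by the same test and threshold, against 16.1% and 17.2% of all 14546 genes tested, or 33.3% together. The share that fell was thus above that of all genes and the share that rose was near it. The 8 members that rose were Cyp1a1, Cyp2a4, Cyp2a22, Cyp2b9, Cyp2b10, Cyp3a59, Cyp4f15 and Cyp4f16. Called members numbered 21 without WT 2 and 23 without WT 3, against 42 without knockout 2 and 46 without knockout 3; in each of these fits 1 group is a lone library, which is assumed to vary like the other. Of 24 called members followed in these fits, 14 passed in all 4 of them (Cyp1a2, Cyp2a4, Cyp2b9, Cyp2b10, Cyp2c67, Cyp2d9, Cyp2d40, Cyp2e1, Cyp2f2, Cyp2u1, Cyp4a12a, Cyp4a12b, Cyp4a32 and Cyp4v3), and 10 were lost without WT 2, WT 3 or either (Cyp1a1, Cyp2a22, Cyp2c40, Cyp2d10, Cyp2j5, Cyp3a11, Cyp4a10, Cyp4f14, Cyp4f15 and Cyp4f17). The median log2 ratio of the 55 members was -0.94 in these libraries and -0.17 in the Xist pair, against 0.00808 and -0.0187 over all genes tested.

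The knockout difference was also compared between the Y libraries and the Xist pair. An interaction of genotype with these 2 states passed the same threshold for 14 of 55 members (25.5%), where 2.90% of all genes passed. Knockout 1 is the only knockout library of the Xist state, so state cannot be told apart from other traits of that mouse. The part of its remaining Stk11 level was not tested. The Xist state has 1 library of each genotype, so the error of this test comes from the 4 Y libraries alone and the Xist pair is assumed to vary like them. This count was 7 without WT 2, 5 without WT 3, 37 without knockout 2 and 42 without knockout 3; Cyp2a4, Cyp2u1, Cyp4a12a and Cyp4a12b passed in every one of these fits, and each of the other 10 was lost without WT 2, WT 3 or either. The interaction is taken as the Xist value minus the Y value, and log2 values are positive where knockout was higher. The log2 ratio had opposite signs in the 2 states for 20 of 55 members (36.4%), near the 37.0% of all genes. Of the 27 members that fell in the Y libraries, 18 were also lower and 9 were higher in knockout 1 than in WT 1.

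**Figure D3:**
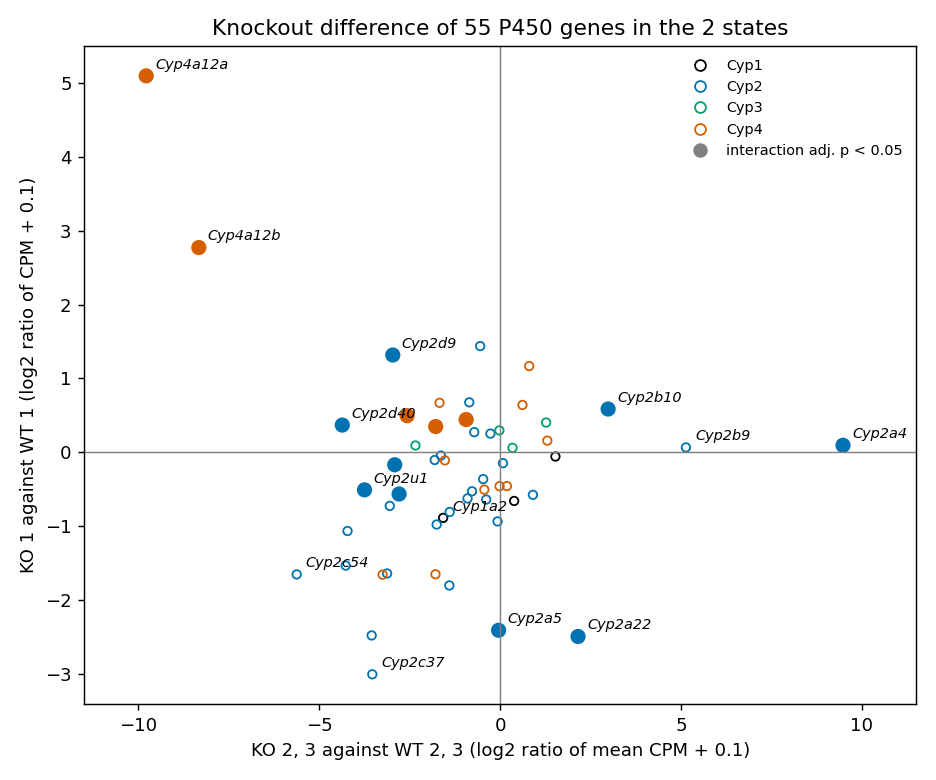
Each of the 55 tested members is a circle, placed by its log2 ratio of knockout 2 and 3 to WT 2 and 3 (horizontal) and of knockout 1 to WT 1 (vertical), coloured by family and filled where the interaction passed an adjusted p-value of 0.05. Cyp4a12a and Cyp4a12b lie far to the left and above 0, Cyp2a4 lies far to the right near 0, and most other members lie left of 0 between -3.01 and 1.44 on the vertical axis.

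Among WT libraries, WT 1 stood apart from WT 2 and 3 in these genes. Of the 53 tested members with a mean of at least 0.5 CPM, 8 were at least 4-fold higher and 4 at least 4-fold lower in WT 1 than in the mean of WT 2 and 3, together 22.6%, against 1.35% of all tested genes at that level. Among knockout libraries 12 of the 53 were at least 4-fold higher and 0 at least 4-fold lower in knockout 1 than in knockout 2 and 3, or 22.6% against 3.14% of tested genes, and 5 of them were higher in both genotypes. These contrasts set 1 library against 2 and have no test.

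The 4 members that were at least 4-fold lower in WT 1 were Cyp4a12a, Cyp4a12b, Cyp2d9 and Cyp2u1. All 4 fell in the knockout Y libraries, but WT 2 and 3 enter both the choice of these members and the fall. The fall is thus not separate evidence about members picked in this way. Cyp4a12a (ENSMUSG00000066071.6, chr4:115299046-115332815, plus strand), which makes 20-HETE from arachidonic acid and is known as a male gene, had 6.02, 1.04 and 0.170 CPM in knockout 1, 2 and 3 and 0.0789, 631 and 617 CPM in WT 1, 2 and 3. Cyp4a12b, its near-copy, had 0.583, 0.252 and 0.743 CPM in knockout 1, 2 and 3 and 0, 175 and 210.2 CPM in WT 1, 2 and 3, where 0 counts in WT 1 allow a level of up to 0.0591 CPM. The level was thus high in WT 2 and 3 alone. Of the 76-base windows of the Cyp4a12a transcripts 40.6% also occur in another gene, mainly Cyp4a12b, so the division between the copies is uncertain, but their sum showed the same pattern, with 6.60, 1.296 and 0.913 CPM in knockout and 0.0789, 806 and 828 CPM in WT. In the Y libraries the log2 fold changes were -9.96 ± 0.723 (SE) for Cyp4a12a and -8.63 ± 0.431 (SE) for Cyp4a12b (adjusted p = 0.000941 and 0.000419). Over all 6 libraries they were -7.42 and -7.93, and neither passed (adjusted p = 0.132 and 0.0909).

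Cyp2d9 (ENSMUSG00000068086.6, chr15:82433437-82456845, plus strand), the testosterone 16 alpha-hydroxylase of male mouse liver, had 134, 197 and 277 CPM in knockout 1, 2 and 3 and 53.7, 1926 and 1792 CPM in WT 1, 2 and 3. WT 2 and 3 were far above the other 4 libraries, and WT 1 was the lowest of all 6. It fell by 2.98 on the log2 scale in the Y libraries (adjusted p = 0.00138), whereas knockout 1 was above WT 1, and its interaction passed (adjusted p = 0.0112). Cyp2u1, which hydroxylates long-chain fatty acids, had 3.74, 2.503 and 2.695 CPM in knockout 1, 2 and 3 and 5.36, 33.7 and 38.8 CPM in WT 1, 2 and 3. All knockout libraries lay below all WT libraries, with a log2 fold change over 6 libraries of -3.12 ± 0.686 (SE) that did not pass (adjusted p = 0.0581), of -3.81 in the Y libraries (adjusted p = 0.000257) and of -0.51 in the Xist pair.

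The Cyp2a and Cyp2b genes lie in clusters on chromosome 7, and several of them moved the other way. Cyp2a4 (ENSMUSG00000074254.4, chr7:26307169-26315088, plus strand), a steroid 15 alpha-hydroxylase known as a female gene, had 462, 199 and 123 CPM in knockout 1, 2 and 3 and 432, 0.0386 and 0.214 CPM in WT 1, 2 and 3. It was near the floor in WT 2 and 3, at 2 and 10 counts, and well above it in the 4 other libraries. It rose in the Y libraries, by 10.33 ± 0.527 (SE) on the log2 scale (adjusted p = 0.000435), while the ratio in the Xist pair was 0.10. Cyp2a5 (ENSMUSG00000005547.14, chr7:26835305-26843548, plus strand), the coumarin 7-hydroxylase, had 73.3, 323 and 207 CPM in knockout 1, 2 and 3 and 389.5, 269.9 and 277 CPM in WT 1, 2 and 3, with overlapping groups, -0.0498 in the Y libraries (adjusted p = 0.887) and -2.41 in the Xist pair. The 2 transcripts share 21.5% of the 76-base windows of Cyp2a4, so part of their counts rests on how reads were divided. Their sum was 535, 521 and 331 CPM in knockout and 822, 269.9 and 277 CPM in WT.

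The windows upstream of the start sites of Cyp2a4 and Cyp2a5, and of the pair Cyp2b9 and Cyp2b13 described next, are shown because the members of each pair have nearly the same upstream letters and different levels across the libraries. Each is the stretch of 210 bases from 250 to 41 bases before the RefSeq start site, which ends before the first GENCODE exon, on the plus strand of GRCm38.p6, 5′ to 3′, at chr7:26306942-26307151, chr7:26835089-26835298, chr7:26173159-26173368 and chr7:26061245-26061454, with capitals at the bases that are substituted between the members of a pair. The Cyp2a windows differ at 4 bases and are offset by 1 base at their ends, and the Cyp2b windows differ at 2 bases.
Cyp2a4: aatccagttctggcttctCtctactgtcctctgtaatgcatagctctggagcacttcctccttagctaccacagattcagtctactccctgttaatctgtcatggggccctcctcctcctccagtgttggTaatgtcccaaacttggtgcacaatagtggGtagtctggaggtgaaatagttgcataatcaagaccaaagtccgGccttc
Cyp2a5: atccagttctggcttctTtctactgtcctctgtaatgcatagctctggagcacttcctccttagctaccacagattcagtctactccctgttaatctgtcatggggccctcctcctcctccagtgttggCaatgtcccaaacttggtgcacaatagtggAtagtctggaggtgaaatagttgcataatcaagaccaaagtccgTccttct
Cyp2b9: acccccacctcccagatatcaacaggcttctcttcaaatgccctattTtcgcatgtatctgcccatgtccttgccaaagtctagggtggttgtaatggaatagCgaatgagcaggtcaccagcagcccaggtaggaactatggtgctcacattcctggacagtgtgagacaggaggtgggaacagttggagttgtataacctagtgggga
Cyp2b13: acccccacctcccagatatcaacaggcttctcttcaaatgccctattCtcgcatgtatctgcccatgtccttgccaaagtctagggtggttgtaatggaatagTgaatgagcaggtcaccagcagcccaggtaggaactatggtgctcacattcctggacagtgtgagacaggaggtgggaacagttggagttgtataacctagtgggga

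Cyp2b9 (ENSMUSG00000040660.6, chr7:26173411-26210661, plus strand), a female gene of mouse liver, had 491, 2.34 and 8.62 CPM in knockout 1, 2 and 3 and 469, 0.0964 and 0.0214 CPM in WT 1, 2 and 3. Both Xist libraries were high, WT 2 and 3 had 5 and 1 counts, and knockout 2 and 3 lay between. It rose in the Y libraries by 6.43 ± 0.963 (SE) on the log2 scale (adjusted p = 0.00705). Cyp2b13 (ENSMUSG00000040583.8, chr7:26061497-26096197, plus strand), also known as a female gene, had 55.5, 0.0720 and 0.106 CPM in knockout 1, 2 and 3 and 276, 0.0193 and 0 CPM in WT 1, 2 and 3. It was high in the Xist libraries and at no more than 5 counts in the other 4, knockout 2 and 3 included, and it did not enter the test. Knockout 1 was -2.31 on the log2 scale against WT 1.

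Cyp2b10 (ENSMUSG00000030483.14, chr7:25897620-25926624, plus strand), the main target of CAR and the gene induced by phenobarbital, had 67.4, 51.1 and 47.5 CPM in knockout 1, 2 and 3 and 44.9, 6.90 and 5.39 CPM in WT 1, 2 and 3. All knockout libraries lay above all WT libraries, and WT 1 was well above WT 2 and 3. The log2 fold change was 1.54 ± 0.783 (SE) over 6 libraries (adjusted p = 0.260) and 3.00 ± 0.153 (SE) in the Y libraries, where it passed (adjusted p = 0.000435). Nr1i3, which encodes CAR, was lower in every knockout library, at 94.4, 41.9 and 68.7 CPM in knockout 1, 2 and 3 and 226, 146 and 117 CPM in WT 1, 2 and 3 (adjusted p = 0.0919 over 6 libraries and 0.0179 in the Y libraries).

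Cyp2a22 had 22.6, 2.00 and 3.35 CPM in knockout 1, 2 and 3 and 127, 0.771 and 0.278 CPM in WT 1, 2 and 3. It was far higher in the Xist libraries and rose in the others by 2.32 ± 0.523 (SE) on the log2 scale (adjusted p = 0.0232), with -2.49 in the Xist pair, so that the 6-library value of -2.20 joins opposite directions. Cyp2a12, the other member of the subfamily, fell in the Y libraries (log2 fold change -1.76, adjusted p = 0.00161) and had a ratio of -0.98 in the Xist pair.

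**Figure D4:**
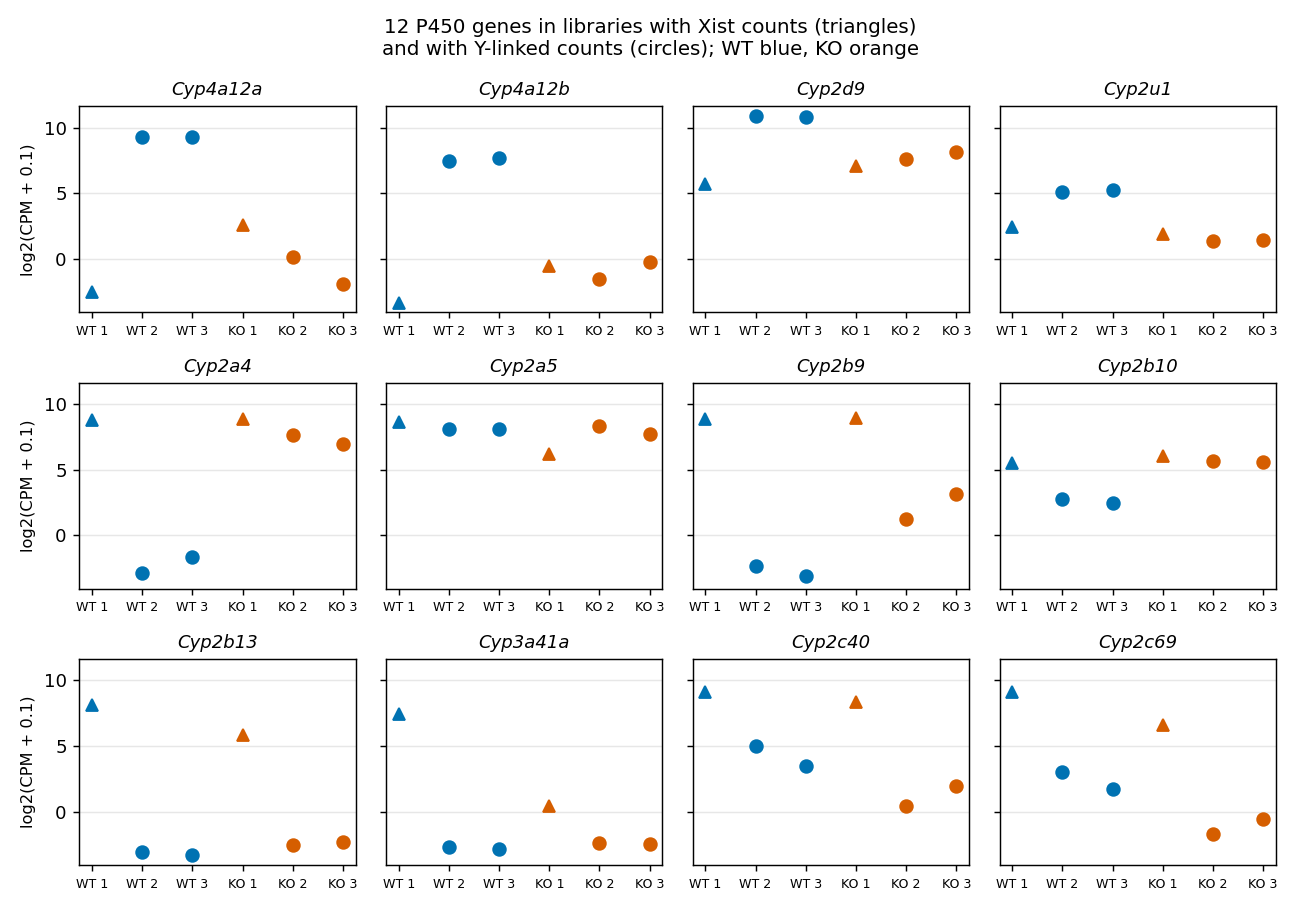
Points give log2(CPM + 0.1) of 12 members in each library, with WT in blue, knockout in orange, triangles for Xist libraries and circles for Y libraries. Knockout 2 and 3 lie with WT 1 rather than with WT 2 and 3 for Cyp2u1 and Cyp2b10. They lie between them for Cyp2d9, Cyp2a4, Cyp2b9, Cyp4a12a and Cyp4a12b, and are nearer to WT 1 for Cyp2a4, Cyp4a12a and Cyp4a12b. They stay at the bottom with WT 2 and 3 for Cyp2b13 and Cyp3a41a, and lie below every WT library for Cyp2c40 and Cyp2c69.

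The Cyp2c subfamily, with 15 members of which 13 were tested, was mostly lower in knockout. It metabolises drugs and makes epoxides of arachidonic acid. In the Y libraries 8 of 13 fell and 0 rose, against 16.1% and 17.2% of all genes, 12 of 13 were lower in knockout 1 than in WT 1 (52.1% of all genes were), and over all 6 libraries 5 were lower at an unadjusted p-value under 0.05 (26.3% of all genes passed it in either direction), with a lowest adjusted p-value of 0.0705 (Cyp2c67). The median log2 fold change over 6 libraries was -1.14. Cyp2c29 (ENSMUSG00000003053.17, chr19:39269405-39330713, plus strand), the most abundant of them per kilobase, had 1445, 270.1 and 1013 CPM in knockout 1, 2 and 3 and 1489.9, 2184 and 1813 CPM in WT 1, 2 and 3. Its lowest value was in knockout 2, and the difference passed in neither fit (adjusted p = 0.293 and 0.0865).

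Steeper falls were measured in the pericentral members Cyp2c37, Cyp2c50 and Cyp2c54, chosen after their values were seen for the lowest log2 fold changes over 6 libraries in the subfamily. Cyp2c54 had 96.7, 0.774 and 11.9 CPM in knockout 1, 2 and 3 and 304, 373 and 261 CPM in WT 1, 2 and 3, with knockout 2 the lowest and knockout 1 the highest of the knockout libraries and all below WT. These genes had log2 fold changes of -3.55, -4.28 and -5.66 in the Y libraries (adjusted p = 0.0160, 0.0231 and 0.0183) and -3.01, -1.53 and -1.65 in the Xist pair. Cyp2c67 had 145, 50.4 and 55.1 CPM in knockout 1, 2 and 3 and 215, 412 and 321 CPM in WT 1, 2 and 3, and it fell by 2.80 on the log2 scale in the Y libraries (adjusted p = 0.0007), with -0.56 in the Xist pair and an interaction that passed (adjusted p = 0.0256). Cyp2c70, which makes the muricholic acids of mouse bile, fell as well, by 1.40 (adjusted p = 0.00270), with -0.81 in the Xist pair.

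Cyp2c40 and Cyp2c69 were high in the Xist libraries, as the female-type Cyp2a and Cyp2b genes were, but did not rise in the knockout Y libraries. Cyp2c40 had 326, 1.22 and 3.74 CPM in knockout 1, 2 and 3 and 539.5, 31.4 and 11.2 CPM in WT 1, 2 and 3. It fell in the Y libraries by 3.13 on the log2 scale (adjusted p = 0.0205), and Cyp2c69 fell by 3.88 (adjusted p = 0.00927). Of the 76-base windows of Cyp2c40 45.4% occur in another gene, mainly Cyp2c69, so values of single genes within this group are uncertain. The other tested members, Cyp2c38, Cyp2c39, Cyp2c55 and Cyp2c68, passed in neither fit, and Cyp2c23 fell in the Y libraries by 4.24 (adjusted p = 0.00687).

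The remaining Cyp2 subfamilies include the most abundant member. Cyp2e1 (ENSMUSG00000025479.9, chr7:140763739-140774987, plus strand), the pericentral enzyme that oxidises ethanol and paracetamol, had 2167, 463 and 918 CPM in knockout 1, 2 and 3 and 6754, 6544 and 5521 CPM in WT 1, 2 and 3. All knockout libraries lay below all WT libraries, and knockout 1 was the highest of the 3. The log2 fold change was -3.13 ± 0.404 (SE) in the Y libraries, where it passed (adjusted p = 0.00474), and -1.64 in the Xist pair. Cyp2f2 (ENSMUSG00000052974.8, chr7:27119909-27133660, plus strand), a periportal enzyme that activates naphthalene, had 614, 152 and 176 CPM in knockout 1, 2 and 3 and 690.0, 1219 and 1260.1 CPM in WT 1, 2 and 3. It fell in the Y libraries (log2 fold change -2.92 ± 0.186 (SE), adjusted p = 0.000662), whereas the Xist pair differed by -0.17, and the interaction passed (adjusted p = 0.0175). Of the 6 periportal markers, Gls2 and Sds rose over 6 libraries (adjusted p = 0.0132 and 0.0346), where 2.15% of all genes did. They had 1133, 1374 and 1830.4 and 264, 627 and 712 CPM in knockout and 364, 314 and 317 and 126, 76.0 and 67.0 CPM in WT.

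Cyp2d10 was the most abundant Cyp2d gene per kilobase in the mean of the 6 libraries, though Cyp2d9 was higher in WT 2 and 3. Cyp2d10 had 478, 427 and 536 CPM in knockout 1, 2 and 3 and 689, 852 and 800.4 CPM in WT 1, 2 and 3, and all knockout libraries lay below WT. It fell in the Y libraries by 0.78 on the log2 scale (adjusted p = 0.0280) and the Xist pair differed by -0.53. Cyp2d40 had 51.8, 1.78 and 3.84 CPM in knockout 1, 2 and 3 and 40.1, 57.9 and 62.0 CPM in WT 1, 2 and 3. It was near the WT level in knockout 1 and low in knockout 2 and 3, and it fell by 4.43 on the log2 scale in the Y libraries (adjusted p = 0.00113), with an interaction that passed (adjusted p = 0.0175). Cyp2d22 and Cyp2d26 passed in neither fit, and Cyp2d11, at no more than 0.449 CPM, was tested without a call.

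Among the Cyp2j genes Cyp2j6 and Cyp2j9 passed in neither fit. Cyp2j5, an epoxygenase of arachidonic acid and the most abundant Cyp2j gene per kilobase, had 499, 150.4 and 245 CPM in knockout 1, 2 and 3 and 536, 727 and 659 CPM in WT 1, 2 and 3. It fell in the Y libraries by 1.82 on the log2 scale (adjusted p = 0.00665) and the Xist pair differed by -0.10. Cyp2r1, a vitamin D 25-hydroxylase, had 12.2, 10.7 and 13.8 CPM in knockout 1, 2 and 3 and 15.7, 17.7 and 16.3 CPM in WT 1, 2 and 3, with all knockout libraries below WT and no call in either fit (adjusted p = 0.110 and 0.0630). Cyp2g1, known from the olfactory mucosa, was low, with 0.669, 0.180 and 0.255 CPM in knockout 1, 2 and 3 and 2.58, 1.12 and 0.363 CPM in WT 1, 2 and 3, and its groups overlapped.

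Of the Cyp3a subfamily, whose members oxidise a large part of all drugs, 4 of 9 were tested, and Cyp3a11 alone fell in the Y libraries. Cyp3a11 (ENSMUSG00000056035.8, chr5:145854426-145879964, minus strand), the main target of PXR, had 3196, 489 and 1058 CPM in knockout 1, 2 and 3 and 2997, 4029.9 and 3821 CPM in WT 1, 2 and 3. Knockout 1 lay within the WT range and knockout 2 and 3 below it, with log2 fold changes of -2.35 ± 0.407 (SE) in the Y libraries (adjusted p = 0.0108) and 0.0928 in the Xist pair, but the interaction did not pass (adjusted p = 0.142). Nr1i2, which encodes PXR, was higher in every knockout library, at 82.7, 115 and 115 CPM in knockout 1, 2 and 3 and 61.7, 60.6 and 61.9 CPM in WT 1, 2 and 3 (adjusted p = 0.0541 over 6 libraries and 0.00352 in the Y libraries). Cyp3a13 and Cyp3a25 passed in neither fit, and Cyp3a59 rose in the Y libraries by 1.27 (adjusted p = 0.0114).

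The female-type members of this subfamily were detected mainly in WT 1. Cyp3a41a (ENSMUSG00000075551.4, chr5:145694049-145720136, minus strand) had 1.25, 0.0900 and 0.0849 CPM in knockout 1, 2 and 3 and 171, 0.0579 and 0.0428 CPM in WT 1, 2 and 3. It shares 95.2% of its 76-base windows with another gene, mainly Cyp3a41b, and their sum was 173 CPM in WT 1 and 1.34 CPM in knockout 1. Cyp3a44 had 1.78, 0.0180 and 0.0849 CPM in knockout 1, 2 and 3 and 16.4, 0.0386 and 0.0428 CPM in WT 1, 2 and 3. Cyp3a16, better known from fetal liver, had 0.0515, 0 and 0.0212 CPM in knockout 1, 2 and 3 and 4.81, 0.0193 and 0 CPM in WT 1, 2 and 3. These genes were thus lower in knockout 1 than in WT 1, with log2 ratios of -6.99 for Cyp3a41a and -3.13 for Cyp3a44, which set 1 library against 1. In knockout 2 and 3 each had at most 5 counts, whereas Cyp2a4 and Cyp2b9 rose there, and these 3 genes did not enter the test.

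Family 4 holds the omega-hydroxylases of fatty acids. In the Cyp4a subfamily 5 of 6 tested members fell in the Y libraries (16.1% of all genes did), Cyp4a12a, Cyp4a12b and Cyp4a31 (-1.71, adjusted p = 0.00829) among them. Cyp4a10 and Cyp4a14, the classical targets of PPAR alpha, were lower in every knockout library than in any WT library. Cyp4a10 (ENSMUSG00000066072.13, chr4:115518264-115533649, plus strand) had 245, 20.5 and 100.3 CPM in knockout 1, 2 and 3 and 773, 676 and 476 CPM in WT 1, 2 and 3, and Cyp4a14 (ENSMUSG00000028715.2, chr4:115486200-115496142, minus strand) had 441, 94.8 and 333 CPM in knockout 1, 2 and 3 and 1386, 952 and 529 CPM in WT 1, 2 and 3. Knockout 2 was the lowest for both, and the WT values of Cyp4a14 spanned more than those of Cyp4a10. Neither passed over 6 libraries (adjusted p = 0.120 and 0.133), and in the Y libraries Cyp4a10 passed (-3.26 ± 0.742 (SE), adjusted p = 0.0238) and Cyp4a14 did not (-1.80 ± 0.619 (SE), adjusted p = 0.0747). In the Xist pair their ratios were alike, at -1.66 and -1.65.

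Cyp4a32 had 15.8, 4.72 and 3.65 CPM in knockout 1, 2 and 3 and 11.2, 25.5 and 25.3 CPM in WT 1, 2 and 3. It fell in the Y libraries by 2.60 on the log2 scale (adjusted p = 0.000603) and was higher in knockout 1 than in WT 1, with an interaction that passed (adjusted p = 0.00786). Cyp4v3, a fatty acid hydroxylase and the counterpart of human CYP4V2, had 363, 158 and 216 CPM in knockout 1, 2 and 3 and 285, 613 and 673 CPM in WT 1, 2 and 3. It too fell in the Y libraries (-1.79, adjusted p = 0.00352), with 0.35 in the Xist pair and an interaction that passed (adjusted p = 0.0452). Cyp4b1 had 9.21, 11.1 and 8.13 CPM in knockout 1, 2 and 3 and 12.7, 9.97 and 9.49 CPM in WT 1, 2 and 3, with overlapping groups and no call.

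The Cyp4f genes, which inactivate leukotriene B4 and related lipids, did not move together. Cyp4f14 had 249.1, 56.6 and 111 CPM in knockout 1, 2 and 3 and 269, 258 and 226 CPM in WT 1, 2 and 3, and it fell in the Y libraries by 1.54 on the log2 scale (adjusted p = 0.0189). Cyp4f15 (ENSMUSG00000073424.9, chr17:32685627-32703352, plus strand) had 163, 164 and 183 CPM in knockout 1, 2 and 3 and 105, 117 and 109.7 CPM in WT 1, 2 and 3. All knockout libraries lay above all WT libraries, by 0.62 ± 0.130 (SE) on the log2 scale with an adjusted p-value of 0.0536, and the value was much the same in the Y libraries (0.61, adjusted p = 0.0190) and in the Xist pair (0.64). It passed over 6 libraries in limma voom (adjusted p = 0.0497), in DESeq2 (0.000286) and when scaled by library size alone (0.0361), and in the Y libraries it was lost without WT 2 or WT 3 (adjusted p = 0.185 and 0.251). Cyp4f17 had 12.8, 8.25 and 8.04 CPM in knockout 1, 2 and 3 and 9.38, 15.1 and 16.4 CPM in WT 1, 2 and 3, fell by 0.96 in the Y libraries (adjusted p = 0.00411), and its interaction passed (adjusted p = 0.0316). Cyp4f13 fell and Cyp4f16 rose there, with log2 changes of -0.45 and 1.35 (adjusted p = 0.0238 and 0.0278), and Cyp4f18 and Cyp4f39 passed in neither fit.

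The enzymes that serve the P450s were also examined, from a list of 18 redox partners and genes of haem synthesis and breakdown. Over 6 libraries 6 of 18 had an unadjusted p-value under 0.05, against 26.3% of all genes, and the lowest adjusted p-value was 0.0566 (Hmox1). In the Y libraries 3 rose and 6 fell, where 17.2% of all genes rose and 16.1% fell. The share that rose was near that of all genes and the share that fell was above it. The median log2 ratio of the 18 genes was -0.17 in these libraries, so the list as a whole did not rise. The genes that rose were Por, Alas1 and Hmox1, named after their values were seen. Por, the reductase that supplies all microsomal P450s with electrons, had 251, 878 and 736 CPM in knockout 1, 2 and 3 and 284, 191 and 161 CPM in WT 1, 2 and 3, and Alas1, which sets the rate of haem synthesis, had 153, 583 and 546 CPM in knockout 1, 2 and 3 and 227, 95.0 and 88.2 CPM in WT 1, 2 and 3. Both were thus high in knockout 2 and 3, where the summed level of the P450s was lowest, and not in knockout 1. Their rises in log2 terms were 2.19 and 2.62 (adjusted p = 0.00155 and 0.000582), and the interaction passed for both (adjusted p = 0.0258 and 0.00730).

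Among 27 nuclear receptors and other factors that act on P450 genes, 26 were tested and 1 passed over 6 libraries. Of all genes 3.37% passed, so this count is near the background. Nr0b2, which encodes the repressor SHP, fell, with 18.9, 14.8 and 17.5 CPM in knockout 1, 2 and 3 and 31.1, 27.8 and 28.7 CPM in WT 1, 2 and 3 and a log2 difference of -0.77 ± 0.131 (SE) that passed (adjusted p = 0.0347). Its adjusted p-value was between 0.0830 and 0.167 when knockout 2, knockout 3 or any WT library was left out, and 0.0682 with the replicate number as a block. In the Y libraries 5 of 26 rose and 10 fell, against 17.2% and 16.1% of all genes, so the share that rose was near the background. Ppara was among the latter, at 65.1, 19.3 and 30.5 CPM in knockout 1, 2 and 3 and 95.4, 98.5 and 78.3 CPM in WT 1, 2 and 3 (adjusted p = 0.00527), while Ahr and Hnf4a passed in neither fit.

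In the list of the growth hormone to STAT5 axis, with 15 genes, 7 of 14 tested had an unadjusted p-value under 0.05 over 6 libraries (26.3% of all genes did), the lowest adjusted p-value was 0.0640 (Socs2), and in the Y libraries 5 of 15 rose and 7 fell (17.2% and 16.1% of all genes). Cux2, a repressor of male genes made in female liver, had 8.11, 18.7 and 28.2 CPM in knockout 1, 2 and 3 and 10.9, 0.116 and 0.428 CPM in WT 1, 2 and 3. Trim24, which acts with nuclear receptors, had 31.3, 46.7 and 49.1 CPM in knockout 1, 2 and 3 and 44.5, 11.05 and 11.4 CPM in WT 1, 2 and 3. Bcl6, a repressor of female genes in male liver, had 6.04, 4.61 and 3.54 CPM in knockout 1, 2 and 3 and 4.24, 17.4 and 34.9 CPM in WT 1, 2 and 3. For these 3 genes, named after their values were seen, knockout 2 and 3 were on the same side as WT 1, with log2 fold changes in the Y libraries of 6.45, 2.09 and -2.68 (adjusted p = 0.000941, 0.000398 and 0.00528). Stat5b fell there by 0.80 (adjusted p = 0.00654) and Ghr, the receptor, by 1.49 (adjusted p = 0.0204).

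Non-P450 targets of the same receptors were listed to set beside the P450s, and 15 of 16 were tested. Of these 15, 1 passed over 6 libraries, against 3.37% of all genes. Acot1, a thioesterase and target of PPAR alpha, was the only one that passed over 6 libraries, with 8.97, 1.91 and 3.97 CPM in knockout 1, 2 and 3 and 37.1, 40.2 and 36.7 CPM in WT 1, 2 and 3 and a log2 difference of -2.94 ± 0.517 (SE) that passed (adjusted p = 0.0383). Its adjusted p-value was 0.0564 to 0.176 when knockout 2, knockout 3 or any WT library was left out, and 0.0663 with the replicate block. In the Y libraries 4 of 15 rose and 9 fell (17.2% and 16.1% of all genes), so falls were more frequent than rises. The median log2 ratio of the 15 was -0.93 there, and Acot1 was among those that fell (-3.73, adjusted p = 0.00164). The 4 that rose were Gsta1, Gsta2, Gstm3 and Nqo1, which conjugate or reduce electrophiles, with log2 fold changes of 4.85, 2.91, 3.92 and 3.00 (adjusted p = 0.00758, 0.000847, 0.00732 and 0.00539). Of the genes named above as AhR targets, Cyp1a2 fell in these libraries, Cyp1a1 rose (1.59, adjusted p = 0.00877) and Cyp1b1 had no call. Nqo1, also known as an AhR target, rose and was named after its values were seen. Values of Tiparp, Ugt1a6a and Aldh3a1, on the same list, are not given here, so no direction is stated for AhR targets as a group.

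Markers of cells and zones moved with some of these results, and their part in them was not tested. The lower summed level of hepatocyte markers in knockout is given above. Summed levels of 8 endothelial markers were 101 to 161 CPM in knockout against 191 to 263 CPM in WT. Over 6 libraries 7 of the 8 had an unadjusted p-value under 0.05, against 26.3% of all genes, with a lowest adjusted p-value of 0.0541 (Tek). For 8 myeloid, 8 stellate, 6 bile duct and 5 lymphocyte markers the ranges overlapped, and no marker of any list was at 0 in all libraries. Of 8 pericentral markers that are not P450s, 1 passed over 6 libraries, Oat, which rose (3.37% of all genes passed). Their summed level was not lower in knockout, at 4771 to 6536 CPM against 4486 to 4919.6 CPM in WT, and Oat, the most abundant of them in knockout, had 3832, 3568 and 4983 CPM in knockout 1, 2 and 3 and 538, 537 and 482 CPM in WT 1, 2 and 3. The median log2 ratio of the 8 was -1.07 in the Y libraries and -0.40 in the Xist pair. The 6 periportal markers, of which Cyp2f2 is 1, had a summed level of 6357 to 10066 CPM in knockout against 4168 to 4273 CPM in WT, which do not overlap, and a median log2 fold change of 0.95 over 6 libraries. Glul, a pericentral marker made by the hepatocytes next to the central vein, had 476, 30.2 and 76.6 CPM in knockout 1, 2 and 3 and 1089.5, 926 and 949 CPM in WT 1, 2 and 3, the same order of knockout libraries as Cyp2e1. Rgn, another pericentral gene, had 678, 17.5 and 83.3 CPM in knockout 1, 2 and 3 and 1462, 1235 and 1100.2 CPM in WT 1, 2 and 3. Of 8 hepatocyte markers Tat alone passed over 6 libraries, as higher (3.37% of all genes passed in either direction). Alb had 50549.7, 10394 and 17534 CPM in knockout 1, 2 and 3 and 95626, 69977 and 57064 CPM in WT 1, 2 and 3. It did not pass over 6 libraries (adjusted p = 0.190) but did in the Y libraries (0.0186).

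RefSeq upstream windows of 250 bases were matched by symbol for 65 of 80 members, and 3 short motifs were searched in them on both strands. For each member 1 window was kept, the nearest to the GENCODE start, whereas the comparison used every RefSeq window without such a choice. The start sites used for Cyp1a1, Cyp2c29 and Cyp2d9 lay 9685, 17680 and 18940 bases from the GENCODE start. The letters TTCNNNGAA, of the STAT5 type, occurred in 4 member windows (6.15%), against 7.02% of all 32851 windows of this length. GCGTG, the core bound by AhR, was found in 11 (16.9% against 28.2%), and AGGTCA, a half-site of nuclear receptors, in 15 (23.1% against 14.0%). Of the printed windows, those of Cyp2b9 and Cyp2b13 hold AGGTCA once each, and those of Cyp2a4 and Cyp2a5 hold none of the 3. Matches of letters are given as a description of these windows.

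The members without a mean of 0.5 CPM were 10 genes with a count in at least 1 library and 13 at 0 throughout, which allows up to 0.0515 to 0.0641 CPM per library. The latter were Cyp2b19, Cyp2b23, Cyp2d34, Cyp2j7, Cyp2j11, Cyp2j12, Cyp2j13, Cyp2t4, Cyp2w1, Cyp4a29, Cyp4a30b, Cyp4f40 and Cyp4x1. Of the 57 members above that mean, 4 did not pass the test's filter with counts mainly in 1 or 2 libraries (Cyp2b13, Cyp3a16, Cyp3a41a and Cyp3a44), and 2 of the lower members, Cyp2d11 and Cyp4f18, did.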

How the data were processed

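Expected counts from RSEM (reads estimated per gene) were deposited by the authors in 1 table of 55450 genes and 6 libraries (poly(A) RNA, paired reads of 76 nt). The submitters' processing notes name bcl2fastq 2.17, cutadapt 1.18, STAR 2.7.0f, RSEM 1.3.1 and the build mm9, whereas all 55450 gene identifiers with their versions were found in GENCODE M21 (GRCm38), whose coordinates and exon lengths are used; the use of strand is not given in the sources used here. Counts were rounded, filtered with filterByExpr (14539 genes kept), scaled by TMM and compared with edgeR 4.0.16 (glmQLFit, glmQLFTest; R 4.3.3), with Benjamini-Hochberg adjustment over all genes tested. SE is the log2 fold change divided by the square root of F. CPM uses TMM-scaled library sizes, log2 ratios of single libraries an offset of 0.1 CPM, and the floor is 3 counts. Libraries with over 1000 Y-linked counts were taken as 1 state. DESeq2 1.42.0 and limma 3.58.1 were alternatives. The test was tested on simulated data.

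Groups and replicate numbers come from the titles. Libraries are separate mice, and the lowest chi-square per degree of freedom between 2 libraries was 30.7, so none repeated another. The members, lists and tests were chosen with earlier results of these data known. Values are given in every library for members that passed over 6 libraries or by interaction, for the most abundant member per kilobase of each subfamily, for a list of 21 textbook members and for list genes that passed; others were named after their values were seen, and 1 list gene that passed is not reported here. Shares of 76-base windows that occur in another gene were computed from GENCODE transcripts, and 19 of 55 tested members shared over 10%.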

Additional observations from a re-analysis of the deposited data

Results flagged for a closer look

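For 14 members the difference between knockout and WT was not equal in the Xist pair and the Y libraries, by an interaction term with an adjusted p-value under 0.05 in edgeR. The interaction is the log2 fold change in the Xist pair minus that in the Y libraries. It was -10.24 for Cyp2a4, -4.81 for Cyp2a22, -2.41 for Cyp2b10 and -2.37 for Cyp2a5. It was 16.55 for Cyp4a12b and 16.17 for Cyp4a12a, sizes that depend on the prior count because WT 1 had 0 and 4 counts; knockout 1 was at least 9.86-fold above the floor of WT 1 for Cyp4a12b. Smaller positive values were measured for Cyp2d40 (4.80), Cyp2d9 (4.29), Cyp2u1 (3.28), Cyp4a32 (3.10), Cyp2f2 (2.75), Cyp2c67 (2.23), Cyp4v3 (2.13) and Cyp4f17 (1.40).

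The same was found for 10 of the 73 tested genes of the lists set beside the members, where 2.90% of all genes passed. Of these, 9 are reported here. The interaction was -6.88 for Cux2, -3.20 for Alas1, -2.74 for Gsta2, -2.71 for Cish, -2.60 for Trim24, -2.38 for Por and -1.80 for Esr1. It was 4.56 for Fabp1 and 2.16 for Vnn1. Each of these 23 values rests on 1 knockout and 1 WT library with Xist counts, so state cannot be told apart from other traits of these mice.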

How the results depend on the processing

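Members called higher and lower in knockout numbered 0 and 1, with 2 genes called on the P450 system list and 490 genes in all. Size factors by the DESeq2 method and a filter on a mean CPM of 0.5 changed none of these by over 1.5 times. Library size alone gave 1 member higher and 6 list genes, limma voom 1 and 4, and no filter 5 members lower, 10 list genes and 771 genes. DESeq2 gave 2 higher, 15 lower, 30 list genes and 2290 genes. The state of Xist and Y-linked counts as an added term gave 1, 7, 17 and 1504, and the Y libraries alone 8, 27, 49 and 4847. Leaving out 1 library gave 0 to 2 members higher, 0 to 21 lower, 0 to 44 list genes and 6 to 4473 genes; the highest counts lower and in all came without knockout 1, and 0 members were called without knockout 2, knockout 3, WT 2 or WT 3. Members called in the Y libraries (35) numbered 35 to 36 under other scalings, filter and limma voom and 21 to 46 without 1 library, and those with an interaction (14) numbered 14 to 15 and 5 to 42. The fits without 1 library in these subsets were chosen after seeing the data.

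The replicate number as a block left 0 members called, 1 list gene and 105 genes. Deviations of same-numbered libraries correlated at 0.18, 0.0443 and 0.0679, and knockout 2 and 3 correlated better with WT 3 and WT 2 (0.12 and 0.20), so the numbers are not taken as pairs.

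Of 43 genes followed over 6 libraries, 4 reversed under some alternative. Cyp1b1 (-0.0707) was 0.10 in limma voom, 0.0699 with the block, 0.0376 with the state term, 0.45 in the Y libraries and 0.47 without WT 1, with -0.40 to 0.47 over the fits without 1 library. Cyp2a22 (-2.20) was 0.80, 0.59, 0.53, 2.32 and 4.13 in the same order, from -4.01 without knockout 1. Cyp2b9 (0.10) was -4.85 without knockout 1 and -0.48 and -0.48 without WT 2 or WT 3, with a highest value of 11.37 without WT 1, and Cyp2c40 (-0.81) was 2.37 without WT 1 and -6.31 without knockout 1. The cause was not tested. With 3 libraries a group and 1 of each in the state with Xist counts, differences within that state have no error.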
